A study of Mus musculus with 12 samples.

Results

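Neutrophils treated with taurocholic acid (TCA) were compared with neutrophils kept in the vehicle PBS over every gene that could be tested. The members of the comparison were the samples TCA 3, 4 and 5 and PBS 3, 5 and 6, which make up 6 of the 12 samples of the series. Of 29737 genes in the count table, 16761 had enough reads to be tested. All cells came from the bone marrow of wild-type mice, which the study describes as healthy female C57BL/6 animals. The labels describe the cells as Ly6G+ cells from a magnetic sort, while the study's methods describe a density medium followed by a kit that enriches neutrophils. The cells were cultured for 24 h with PBS or with 200 μM TCA, and stranded mRNA libraries were sequenced. The 6 other samples were cultured for the same 24 h with glycocholic acid (GCA, 200 μM) or tauro-β-muricholic acid (Tβ-MCA, 10 μM in the labels and a higher dose, the same as for TCA, in the methods). No sample carried a transgene or a deletion. The sources used here do not say how many mice stood behind a sample, so the p-values below measure only the spread between these samples, which may be technical.

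TCA is cholic acid joined to taurine, one of the most abundant primary bile acids of the mouse. Bile acids are made from cholesterol in the liver, and they act on cells through the nuclear receptor FXR and through the membrane receptor TGR5, which couples to cAMP. As charged molecules, conjugated bile acids mostly enter cells through transporters. Neutrophils are short-lived phagocytes whose granule proteins are made in the marrow, and in tumors they can take on an immunosuppressive state. The comparison asks which of these genes TCA moved, and how large a change the 3 samples of each group could have missed.

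The total count per sample lay between 34306467 and 37175737 in the PBS group and between 33188881 and 41375925 in the TCA group. The libraries were neutrophil-rich. The summed level of 12 neutrophil markers was between 49377 and 63368 CPM (read counts scaled by the size of the library), against 2590 to 3174 CPM for 13 monocyte and macrophage markers and 3.38 to 5.26 CPM for the T and NK cell markers, of which Gzma was at 0 in all 6 samples. PBS 3 and TCA 3 stood apart from the other 4 samples and near each other. Over the 8050 genes above 10 CPM, the root mean square difference in log2 CPM was 0.161 between PBS 3 and TCA 3 but up to 0.237 between a number 3 sample and another. The eosinophil markers summed to 289 CPM in PBS 3 and 253 CPM in TCA 3, and to between 159 and 180 CPM in the other samples. Since each group held one such sample, the main counts are also given without the number 3 samples.

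Few genes separated the neutrophils treated with TCA from those of the PBS group. No gene passed a Benjamini-Hochberg adjusted p of 0.05 in edgeR's quasi-likelihood test (0 genes, or 0% of those tested), and the smallest adjusted p was 0.99987. At an unadjusted p under 0.05 there were 546 genes (3.26%), of which 249 were higher and 297 lower with TCA. A share of 0.05 is expected at this threshold with no difference at all, so the 546 are not read as responses to TCA. DESeq2 and edgeR's exact test each gave 1 gene with an adjusted p under 0.05, which was Saa3 in both, and limma-voom gave 0. The study's methods give cutoffs of 0.05 for p and 2 for fold change with edgeR, without saying whether p was adjusted. They also describe DESeq2 with Benjamini-Hochberg adjustment. Taken here as an unadjusted p under 0.05 with at least a 2-fold change, the study's thresholds called 38 genes higher (0.227% of those tested) and 40 genes lower (0.239%). The values of the groups did not overlap for 64 of these 78 genes and for 1620 of all genes tested (9.67%). Without the number 3 samples, the same thresholds called 129 genes, 45 higher and 84 lower, of which 33 were also among the 78. No gene had an adjusted p under 0.05 in that fit, and 710 had an unadjusted p under 0.05.

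The spread between replicates, estimated over all 12 samples of the series, set how small a change could be seen. For 13400 genes (79.9%), the 95% interval of the log2 fold change lay wholly between a 2-fold decrease and a 2-fold increase. For 10576 genes (63.1%), it lay inside 1.5-fold. No interval lay wholly beyond 2-fold. These intervals are per gene and are not adjusted for the number of genes. A test of equivalence to within 2-fold, adjusted by Benjamini-Hochberg over all genes, was passed by 13937 genes. It took the larger of the one-sided p against either bound, at a threshold of 0.05. That is a looser bound than the 95% interval, so the larger count is not a stricter result. The log2 fold change had a median of 0.00049, and 95% of genes lay between -0.60 and 0.57.

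Precision depended on the level of the gene. Among 2131 genes over 100 CPM, the interval reached a median of 1.11-fold to either side of the estimate, and 99.4% of the intervals lay inside 2-fold. Among 5919 genes between 10 and 100 CPM, it reached 1.15-fold. It reached 1.33-fold for the 5157 genes between 1 and 10 CPM and 1.99-fold for the 3554 genes under 1 CPM, of which 20.03% had an interval inside 2-fold. The genes called at the study's thresholds came almost wholly from the last class. Of the 78, 75 were under 1 CPM, and their median level was 0.304 CPM against 8.88 CPM over all genes tested. No gene over 100 CPM was called. Of the 78, 40 (51.3%) were protein-coding in GENCODE vM21, against 73.1% of all genes tested, and 13 (16.7%) were processed pseudogenes, against 6.39%.

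**Figure D1:**
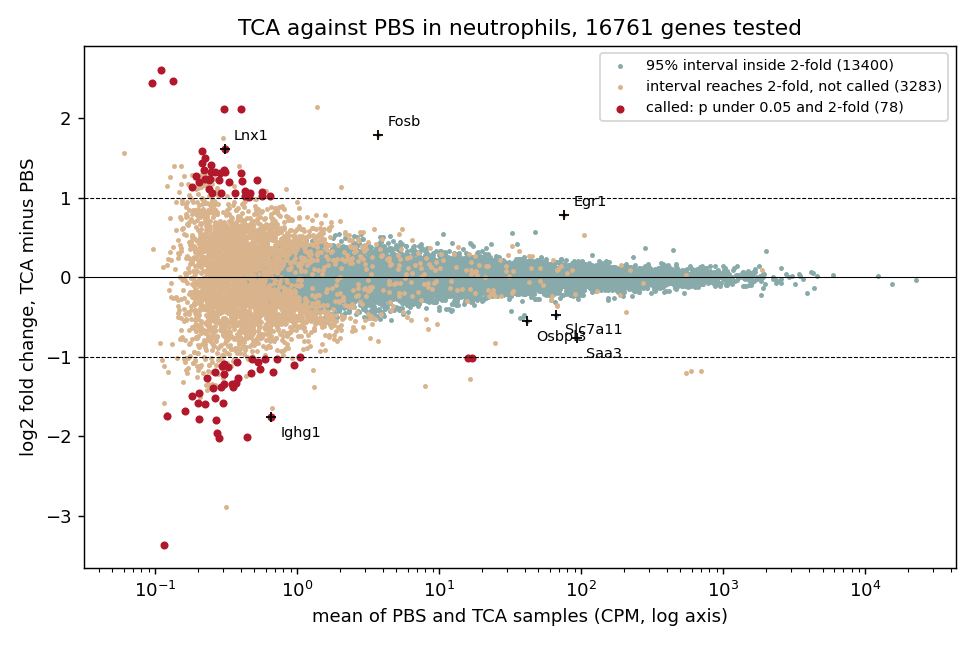
Log2 fold change of TCA minus PBS for each gene tested, against its mean level in CPM on a log axis. Dashed lines mark 2-fold, red points the 78 called genes, and crosses 7 genes described in the text. The called genes crowd at the left edge, 75 of them under 1 CPM, and the cloud narrows toward abundant genes.

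The genes with the lowest p were mostly abundant and lower with TCA by less than 2-fold. They were singled out after their values were seen. Saa3, an acute-phase serum amyloid A protein that myeloid cells make in inflammation, had the lowest p of all. Its level was 131, 118 and 106 CPM with PBS and 51.7, 75.05 and 82.3 CPM with TCA, so every TCA sample lay below every PBS sample. The mean was 119 ± 12.3 CPM with PBS and 69.7 ± 16.0 CPM with TCA (SD, n = 3 each), and the log2 fold change was -0.77 ± 0.15 (SE) with a 95% interval from -1.08 to -0.45. The p was 0.000208 in edgeR's quasi-likelihood test, with an adjusted p of 0.99987. DESeq2 gave Saa3 an adjusted p of 0.00139 and edgeR's exact test one of 0.0039. Over 19 alternative settings the log2 fold change of Saa3 lay between -0.90 and -0.52.

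Osbpl3 encodes an oxysterol-binding protein of the lipid transfer family. It had 49.4, 49.7 and 49.3 CPM with PBS against 29.7, 34.98 and 36.9 CPM with TCA, without overlap. The log2 fold change was -0.55 ± 0.11 (SE), with an interval from -0.79 to -0.31. Slc7a11 encodes the cystine transporter subunit that feeds glutathione synthesis. It had 93.1, 73.4 and 65.7 CPM with PBS and 59.8, 55.1 and 52.7 CPM with TCA, again without overlap. Its log2 fold change was -0.47 ± 0.10 (SE), with an interval from -0.68 to -0.26. For both genes the whole interval lay below 0 and inside 2-fold.

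Tgm2, a transglutaminase that crosslinks proteins, had 47.0, 45.8 and 44.5 CPM with PBS and 27.7, 32.8 and 36.6 CPM with TCA. Myo10, an unconventional myosin of filopodia, had 49.9, 41.0 and 41.2 CPM with PBS and 25, 33.96 and 33.2 CPM with TCA. Neither gene overlapped between the groups, and the log2 fold changes were -0.50 ± 0.11 and -0.52 ± 0.11 (SE). Of the other genes with the lowest p, Ly6i, a Ly6 family surface protein (-0.76), Retsat, a retinol saturase (-0.67), Lrrc75a (-0.91) and Renbp, a renin-binding epimerase (-0.31), were lower on the log2 scale. Clic4, an intracellular chloride channel protein (0.36), 2010315B03Rik (0.43) and Lnx1 (1.61), a ubiquitin ligase, were higher. All 12 of these genes had separate ranges in the 2 groups and kept a p under 0.05 in each alternative in which they were tested. Since they were chosen by the lowest p in the same samples, neither result is independent support for a change. None had an adjusted p under 0.05 in edgeR's quasi-likelihood test.

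Arrdc3, an arrestin-like adaptor that limits receptor signaling, was higher with TCA. It had 20.1, 27.2 and 31.5 CPM with PBS and 30.4, 41.6 and 43.5 CPM with TCA, and the lowest TCA sample lay below the highest PBS sample. Its log2 fold change was 0.55 ± 0.17 (SE), with an interval from 0.17 to 0.93. Egr1, an immediate-early transcription factor, had 33.9, 80.5 and 53.3 CPM with PBS and 74.7, 121 and 93.5 CPM with TCA, which also overlapped. The log2 fold change of Egr1 was 0.79 ± 0.31 (SE), and its unadjusted p of 0.0341 in edgeR's test was lost without PBS 3 (0.53), PBS 6 (0.75), TCA 4 (0.59) or TCA 5 (0.81). Fosb, an AP-1 subunit, had 0.23, 2.00 and 2.83 CPM with PBS and 0.93, 9.02 and 7.39 CPM with TCA. Its log2 fold change of 1.78 had an interval from -0.16 to 3.72, so the difference in Fosb did not pass the test, and a difference of more than 2-fold lay inside the interval.

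**Figure D2:**
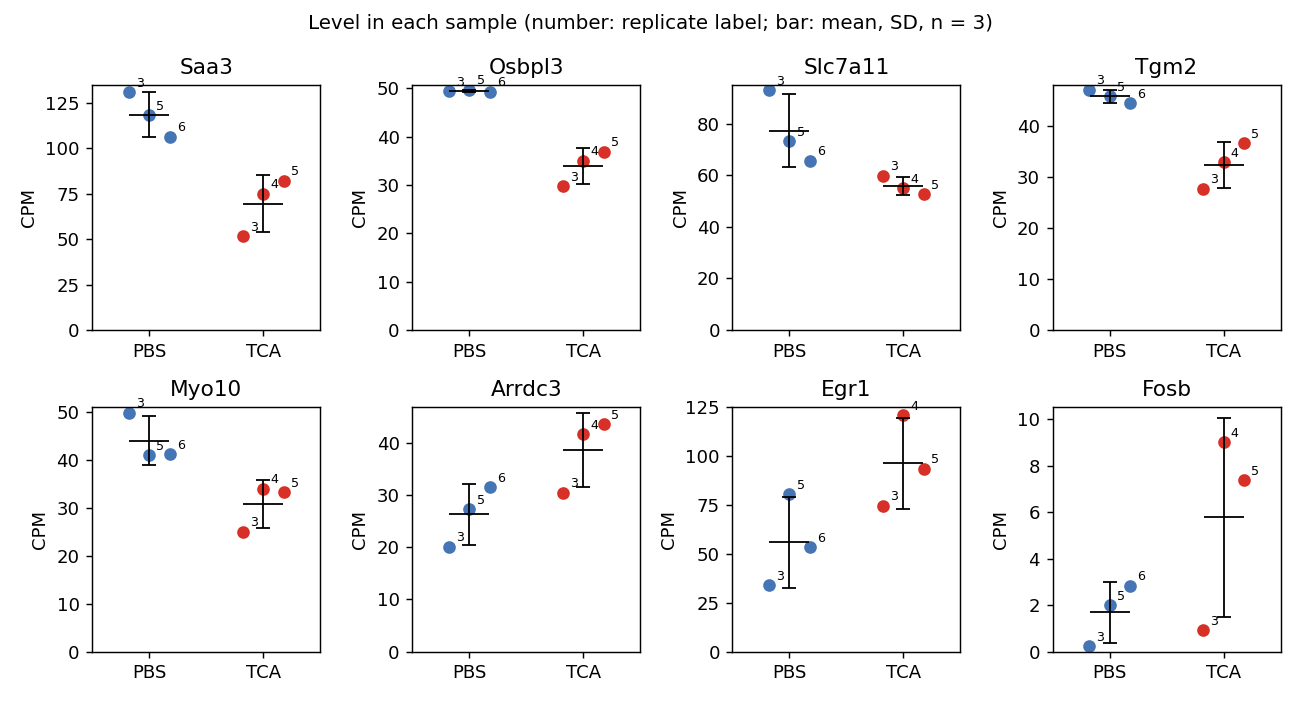
Level in CPM of 8 genes in each PBS and TCA sample, with the replicate label beside each point and the mean and SD of 3 samples as a bar. Saa3, Osbpl3, Slc7a11, Tgm2 and Myo10 lie lower with TCA without overlap, while Arrdc3, Egr1 and Fosb overlap and have their lowest value in each group in the number 3 sample.

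The promoters of 4 of these genes are shown: Saa3, Osbpl3 and Slc7a11 had the lowest p of all genes, and Lnx1 had the lowest p of the genes called higher. The sequences are from RefSeq on GRCm38.p6, each from 250 bases before to 50 bases after the start, and they lie at chr7:46715627-46715926 (Saa3), chr6:50456121-50456420 (Osbpl3), chr3:50443564-50443863 (Slc7a11) and chr5:74702854-74703153 (Lnx1), all on the minus strand. Capitals mark matches to the motifs searched on both strands.
Saa3: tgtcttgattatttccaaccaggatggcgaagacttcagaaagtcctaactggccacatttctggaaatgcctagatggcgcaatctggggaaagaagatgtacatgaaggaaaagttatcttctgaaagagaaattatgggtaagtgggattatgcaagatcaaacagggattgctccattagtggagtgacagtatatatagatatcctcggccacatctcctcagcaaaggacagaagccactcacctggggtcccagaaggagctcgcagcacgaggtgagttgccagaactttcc
Osbpl3: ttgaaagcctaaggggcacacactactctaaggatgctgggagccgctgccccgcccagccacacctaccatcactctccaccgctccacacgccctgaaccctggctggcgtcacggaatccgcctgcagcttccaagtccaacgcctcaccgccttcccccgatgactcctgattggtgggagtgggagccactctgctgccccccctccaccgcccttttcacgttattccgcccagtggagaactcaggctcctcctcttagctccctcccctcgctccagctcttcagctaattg
Slc7a11: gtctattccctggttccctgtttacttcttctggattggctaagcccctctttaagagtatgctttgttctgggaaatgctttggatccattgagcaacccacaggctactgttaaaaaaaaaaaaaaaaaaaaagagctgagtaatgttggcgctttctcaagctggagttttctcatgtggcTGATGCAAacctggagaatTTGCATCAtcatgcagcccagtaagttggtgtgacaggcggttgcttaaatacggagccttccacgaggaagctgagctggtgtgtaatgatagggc
Lnx1: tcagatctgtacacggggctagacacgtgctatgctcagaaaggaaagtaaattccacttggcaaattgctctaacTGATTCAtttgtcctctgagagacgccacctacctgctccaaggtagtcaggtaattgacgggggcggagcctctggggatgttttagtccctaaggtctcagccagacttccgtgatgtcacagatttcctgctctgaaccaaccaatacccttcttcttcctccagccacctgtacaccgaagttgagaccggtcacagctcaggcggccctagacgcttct
The motifs were the AP-1 site TGANTCA, the full CRE TGACGTCA that CREB binds, the FXR inverted repeat of AGGTCA spaced by 1 base, and the ATF4 amino acid response motif TGATGNAA, of which the last was added after the values were seen. None of these motifs can lie wholly within another. Saa3 and Osbpl3 held none of these motifs, nor did the promoters of Myo10 and Arrdc3, while Slc7a11 held 2 matches to the ATF4 motif in opposite orientation, and Lnx1 held 1 AP-1 site. A promoter was found for 10369 of the genes tested, and 2.85% of them held the ATF4 motif, 6.61% the AP-1 site, 3.50% the full CRE and 0% the FXR repeat. Of the 30 called genes with a promoter, 3 held the AP-1 site (10.0%), 2 the ATF4 motif (6.67%) and 0 the CRE or the FXR repeat. Of 313 genes at p under 0.05 with a promoter, 8.63% held the AP-1 site, 5.11% the ATF4 motif and 3.51% the CRE.

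The genes with at least 2-fold changes rested on few reads. Lnx1 had 3, 7 and 6 reads with PBS and 14, 21 and 17 with TCA, and its log2 fold change of 1.61 had an interval from 0.68 to 2.54. Zfp969, a zinc finger protein, had 8, 8 and 10 reads with PBS against 17, 21 and 25. Dnase1, the secreted nuclease, had 15, 16 and 14 reads against 28, 37 and 31. The rule that named these genes took only called genes whose groups did not overlap, so the lack of overlap is no separate result. Amacr, a racemase needed to shorten the side chain of bile acid precursors, had 8, 14 and 18 reads against 18, 40 and 28, with a log2 fold change of 1.02. Its p under 0.05 was lost without PBS 3 (0.76) or TCA 4 (0.80). The other higher genes named by the same rule were Gm44445, Hist1h2ae, Fzd1, D030047H15Rik, Gm44394, Gm9431, Tmem91 and Cd300ld4, with log2 fold changes between 1.06 and 2.61. Gm44394, a miRNA model, lies within the histone gene Hist1h2ae on the opposite strand. Exons of Lnx1 overlap those of Fip1l1 on the opposite strand, and exons of Dnase1 those of Trap1 and Gm15879. Likewise, exons of Tmem91 overlap those of Exosc5, and exons of D030047H15Rik those of Ttyh1. The strand setting of the counting is not given, and whether these genes share reads was not tested.

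Among the called lower genes without overlap, 2 immunoglobulin genes had the lowest p. Ighg1, an IgG heavy chain constant gene, had 49, 22 and 37 reads with PBS and 7, 8 and 18 with TCA, a log2 fold change of -1.76 ± 0.48 (SE). Igkv15-103, a light chain variable gene, had 18, 34 and 24 reads against 2, 12 and 6, a log2 fold change of -2.001 ± 0.56 (SE). Both genes were named by the rule that asks for groups without overlap. Of the immunoglobulin genes tested, 1 of 11 constant and 2 of 21 variable genes were called. Over all genes tested, 0.227% were called higher and 0.239% lower. The constant genes Ighg2b (-1.17, interval -3.01 to 0.68) and Igkc (-0.53) were not called. The B cell markers, whose genes these are not, summed to 72.7, 60.3 and 57.5 CPM with PBS and 72.2, 51.9 and 53.2 CPM with TCA, with Vpreb3 and Igll1 at or under 4 reads. Their part in the result was not tested. In bulk samples, fewer cells of a type and less RNA per cell cannot be told apart. Hspa1l, a heat shock protein, had 18, 29 and 34 reads with PBS against 6, 16 and 16, and Mical2, an actin oxidase, had 14, 14 and 26 against 6, 10 and 6. Further lower genes of the same rule, Gm10221, Gm26788, Rab26os, Gm43375, Rnu3b3, Gm15419 and Gm11642, lay between -2.02 and -1.19 on the log2 scale and are mostly noncoding. Exons of Gm26788, Gm15419 and Hspa1l overlap those of Dst, Col4a2 and Gm10501 on the opposite strand, so reads may be shared there too. The reads of Rab26os (24, 12 and 12 against 4, 2 and 6) and of Rnu3b3, a copy of the U3 snoRNA (24, 12 and 10 against 4, 2 and 6), were nearly the same in these 6 samples. They differed with Tβ-MCA, at 6, 12 and 2 reads for Rab26os and 18, 8 and 8 for Rnu3b3. Whether the 2 genes share reads was not tested. Of the 24 genes named by this rule, 10 kept a p under 0.05 in each alternative in which they were tested, and 5 lost it when 1 sample was left out: besides Amacr these were Gm9431 without PBS 6 (1.11) or TCA 3 (0.81), Cd300ld4 without TCA 4 (1.78), Mical2 without PBS 6 (-1.03) and Rnu3b3 without PBS 3 (-1.48). Cd4, a T cell coreceptor, was the only called member of a marker list, with 14, 6 and 12 reads against 22, 22 and 23, and its p was over 0.05 without PBS 5 (0.75), PBS 6 (1.07), TCA 3 (0.93) or TCA 5 (0.99). The T and NK cell markers together summed to 3.50, 5.26 and 4.15 CPM with PBS and 3.81, 3.38 and 4.65 CPM with TCA, and Trac, the receptor alpha constant gene, had 6, 7 and 8 reads against 0, 2 and 2.

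Only 3 called genes were above 1 CPM, and they were named after their values were seen. Cfb, complement factor B of the alternative pathway, had 24.4, 20.9 and 23.4 CPM with PBS and 5.93, 13.1 and 14.7 CPM with TCA. The groups did not overlap, and TCA 3 was the lowest sample. The log2 fold change of Cfb was -1.02, with an interval from -1.91 to -0.13. Gm20547 lies over Cfb and had nearly the same values, so the pair is 1 signal. Mcoln2, an endolysosomal cation channel, had 1.32, 1.74 and 1.13 CPM with PBS and 0.71, 0.44 and 0.95 CPM with TCA. A further 110 genes differed by 2-fold or more without a p under 0.05, of which 10 were above 1 CPM. The abundant ones were the ribosomal RNA related genes Rn18s-rs5, Gm42418 and AY036118, each over 2-fold lower on average. Rn18s-rs5 had 292, 539 and 2092 CPM with PBS and 323, 551 and 414 CPM with TCA, and PBS 6 stood above all other samples.

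The machinery that binds bile acids was sparse in these cells. Nr1h4, which encodes FXR, had 0 reads in all 6 samples, which allows up to 3 reads per sample, or 0.0725 to 0.0904 CPM, by counting error. Gpbar1, which encodes TGR5, had 2, 2 and 4 reads with PBS and 0, 2 and 0 with TCA. The pregnane X receptor Nr1i2 had at most 2 reads in a sample and Nr1h5 at most 1. None of these could be tested. The tested receptors were Chrm3, a muscarinic receptor, at 10.7, 11.7 and 11.2 CPM with PBS and 10.4, 12.5 and 11.1 CPM with TCA, S1pr2, a sphingosine phosphate receptor that also responds to conjugated bile acids, the constitutive androstane receptor Nr1i3 and the vitamin D receptor Vdr. The log2 fold change of Chrm3 was 0.02, with an interval from -0.20 to 0.24, that of S1pr2 was -0.07 (-0.38 to 0.25), and that of Nr1i3 was -0.11 (-0.50 to 0.29). A 2-fold change of these 3 receptors lay outside the intervals, while Vdr, at 6 to 12 reads, had an interval from -0.74 to 1.85.

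Of 19 bile acid transporters 14 were in the table and 13 were tested, and 0 of them had a p under 0.05, beside the 3.26% of all genes. The exporters Abcc1, at 41.8 ± 0.75 CPM with PBS and 40.8 ± 5.20 CPM with TCA (SD, n = 3 each), and Abcc4, at 20.7 ± 1.97 and 19.95 ± 2.08 CPM, had the highest counts of the list and log2 fold changes of -0.03 and -0.05. The intervals of 10 transporters lay inside 2-fold. Those of the bile salt export pump Abcb11, of Abcb1a and of Abcb4 did not. Abcg2, an efflux pump, was 1.38, 1.12 and 1.38 CPM with PBS and 1.61, 1.79 and 1.71 CPM with TCA, and its groups did not overlap, but its interval of -0.04 to 0.84 included 0. The uptake transporter Slc10a1 had 49, 43 and 51 reads against 26, 42 and 47. Slc51a, a subunit of the organic solute exporter and a classical FXR target, had 0 reads in each PBS sample and 5, 3 and 2 reads with TCA, too few to be tested. Of the 4 FXR target genes tested, Sdc1, a proteoglycan, had 98, 86 and 74 reads with PBS and 46, 66 and 67 with TCA. Its log2 fold change was -0.60 with an interval from -1.15 to -0.04, and its p under 0.05 was lost without PBS 3 (-0.49), PBS 5 (-0.57), TCA 3 (-0.52) or TCA 4 (-0.59).

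**Figure D3:**
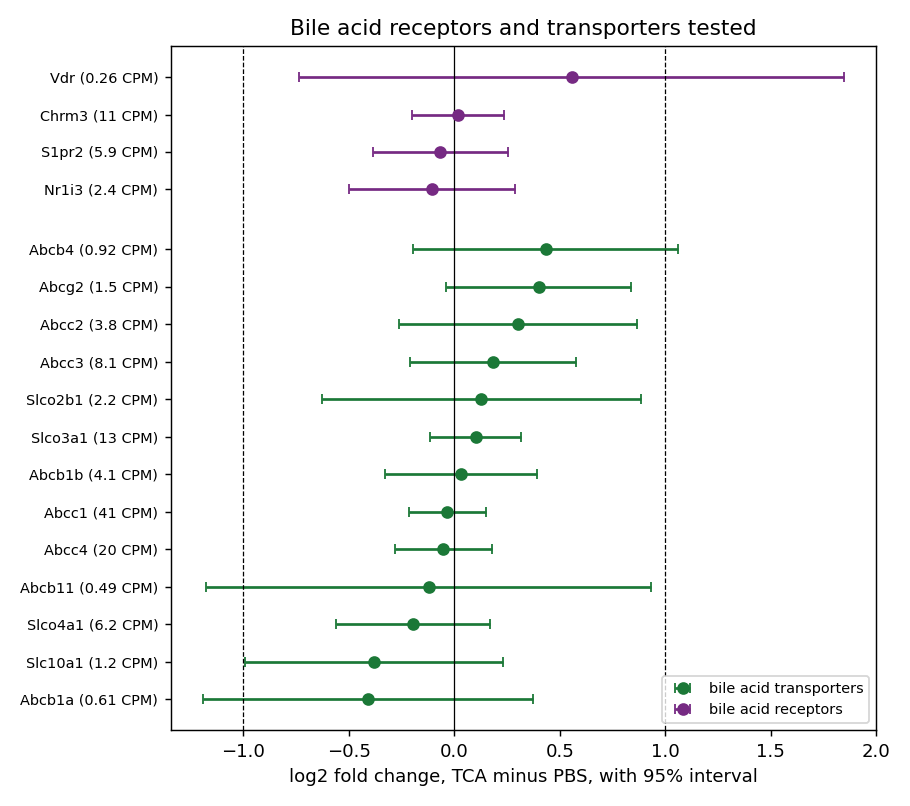
Log2 fold change of TCA minus PBS with its 95% interval for the 4 bile acid receptors and 13 transporters tested, with the mean level of each gene in brackets. Dashed lines mark 2-fold. All intervals include 0, and those of Vdr, Abcb11, Abcb1a and Abcb4 reach beyond 2-fold.

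The lists of neutrophil and stress genes held few differences. Over 23 function lists with 334 tested genes, 8 had a p under 0.05 (2.40%, against 3.26% of all genes) and 1, Amacr, was called. The median log2 fold change was -0.02, against 0.00049 over all genes. Of all genes tested, 50.2% had a point estimate above 0. The counts of signs given for single lists below are descriptions and were not tested. The intervals of 294 genes (88.0%) lay inside 2-fold and those of 243 (72.8%) inside 1.5-fold, against 79.9% and 63.1% of all genes.

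For the neutrophil's own equipment, all 7 NADPH oxidase genes, which make the oxidative burst, had an interval inside 1.5-fold. The most abundant, Ncf1, had 2405 ± 152 CPM with PBS and 2291 ± 78.4 CPM with TCA (SD, n = 3 each). All 7 point estimates were below 0, between -0.09 and -0.01, and none had a p under 0.05. All 14 genes of the specific and gelatinase granules lay inside 2-fold, with a median of -0.04, among them Ngp at 16026 ± 2496 and 15040 ± 1953 CPM and Camp, the cathelicidin (-0.20, interval -0.82 to 0.41). Of 5 azurophil granule genes, 3 lay inside 2-fold. The myeloperoxidase gene Mpo, at 203 ± 7.85 and 175 ± 7.68 CPM, and the elastase gene Elane did not, since the interval of Mpo ran from -1.38 to 0.94. The PBS and TCA values of Mpo did not overlap. All 12 samples share the estimate of the spread, and Mpo had 32.3, 44.5 and 154 CPM with Tβ-MCA. The p of Mpo was under 0.05 in 2 of 19 alternatives, among them edgeR's quasi-likelihood test with only the groups compared. Of 25 surface receptors, 23 lay inside 2-fold, with Itgam, the CD11b chain, at -0.02 (interval -0.20 to 0.15). None of the 19 cell cycle genes reached outside 1.5-fold, and Mki67, the proliferation marker, was at 1902 ± 223 CPM with PBS and 1903 ± 107 CPM with TCA. Mcm3, a subunit of the replication helicase, was -0.16 on the log2 scale with a p under 0.05 that held in 6 of 19 alternatives and was lost without PBS 3 (-0.07), TCA 3 (-0.13), TCA 4 (-0.17) or TCA 5 (-0.17).

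Of 21 tested immunosuppressive effectors, 0 had a p under 0.05 and 18 lay inside 2-fold. Nos2, which encodes iNOS, had 89, 60 and 57 reads with PBS and 60, 63 and 75 with TCA. Its log2 fold change was -0.11 with an interval from -0.69 to 0.46, so that a 2-fold increase lay outside the interval. Arg1, arginase 1, had only 7, 12 and 7 reads against 3, 5 and 18 and was not tested. Ptgs2, the cyclooxygenase COX-2, had 14, 6 and 39 reads against 24, 55 and 36, with an interval from -0.17 to 1.96. For Ptgs2 the interval thus held both no change and an increase of more than 2-fold. Among chemokines, the precision was poor: 3 of 11 intervals lay inside 2-fold. Cxcl10, an interferon-induced chemokine, had 16, 6 and 12 reads against 12, 24 and 18, and an interval from -0.38 to 1.55. Of 12 inflammatory cytokines, 9 lay inside 2-fold, with 9 of 12 point estimates below 0 and 0 at p under 0.05.

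In the p38 pathway, 21 of 23 genes lay inside 2-fold and none had a p under 0.05. Mapk14, the p38α kinase, was at 127 ± 8.80 CPM with PBS and 116 ± 5.14 CPM with TCA, and its log2 fold change was -0.13 (interval -0.26 to 0.01). Mapk3 (0.00, interval -0.17 to 0.18) and Akt1 (-0.07, interval -0.22 to 0.09), kinases of the ERK and AKT pathways, were as precise. Map2k6, an activator of p38, had 26, 18 and 34 reads against 18, 14 and 24 and an interval from -2.23 to 1.19. The other samples that share the estimate of the spread were uneven for Map2k6, at 7.99, 6.40 and 2.92 CPM with Tβ-MCA and 0.68, 3.44 and 0.67 CPM with GCA. RNA levels say nothing of the phosphorylation of these kinases. Among 14 tested genes of the cAMP response, through which TGR5 would act, 10 point estimates were above 0 with a median of 0.09. Egr1 had a p under 0.05, which was lost when only the PBS and TCA groups were fitted. Dusp1, the most abundant, was at 510 ± 52.3 and 537 ± 55.9 CPM.

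The metabolic and stress lists were narrow. All 24 genes of cholesterol synthesis and uptake lay inside 2-fold, 23 of them inside 1.5-fold. So did all 10 LXR target genes, all 22 genes of the ER and integrated stress response and all 11 heat shock chaperones tested, with 0 at p under 0.05 in each list. Of 17 NRF2 target genes, 16 lay inside 2-fold, and Slc7a11 was the only one with a p under 0.05. In the BCL2 family and caspases, 17 of 19 lay inside 2-fold. Bax, a pro-apoptotic effector, was 67.6, 87.8 and 75.6 CPM with PBS and 63.1, 64.6 and 65.3 CPM with TCA, without overlap, and Bcl2a1d, an anti-apoptotic member with near-identical copies among which reads can be split, was -0.63 on the log2 scale. The p under 0.05 of Bax was lost without PBS 5 (-0.15) or TCA 3 (-0.25), and that of Bcl2a1d without PBS 5 (-0.53), PBS 6 (-0.63), TCA 3 (-0.53) or TCA 5 (-0.54). Ldha, lactate dehydrogenase, was 200.2, 208 and 204 CPM with PBS and 175, 182 and 185 CPM with TCA, a log2 fold change of -0.17 that kept a p under 0.05 in all 19 alternatives. Of 32 interferon-stimulated genes, 25 point estimates were below 0 with a median of -0.06, 27 lay inside 2-fold and 0 had a p under 0.05.

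**Figure D4:**
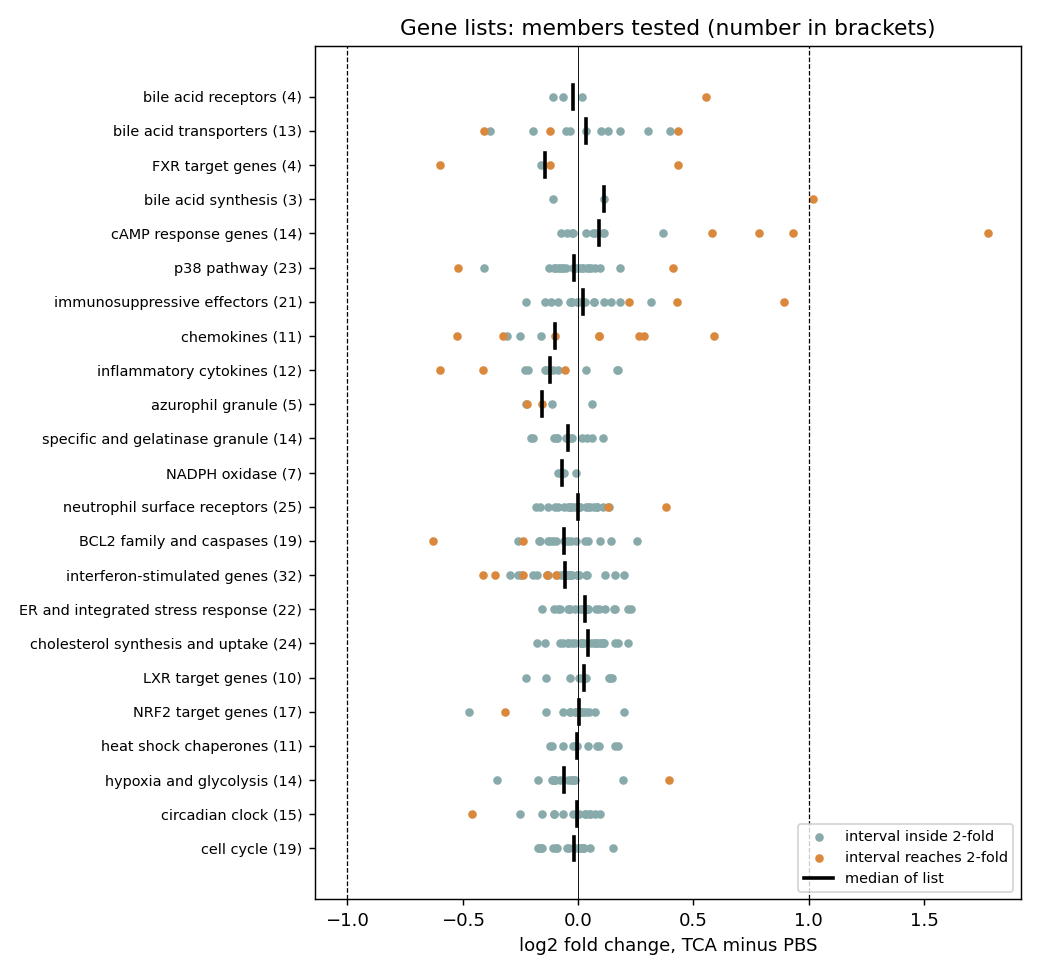
Log2 fold change of TCA minus PBS of each tested gene in 23 function lists, with the median of each list as a black bar and the number tested in brackets. Dashed lines mark 2-fold, and orange points have an interval that reaches it. Medians lie between -0.16 and 0.11, and Fosb and Amacr are the points beyond 2-fold.

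The most abundant genes with a p under 0.05 and separate groups differed by small steps. Unc93b1, a chaperone of endosomal Toll-like receptors, had 450.1, 450.5 and 421 CPM with PBS and 388, 383 and 401 CPM with TCA, a log2 fold change of -0.17 ± 0.06 (SE). Nfkbia, the inhibitor of NF-κB, was 419 ± 12.8 and 371 ± 26.2 CPM (-0.18). Kdm7a, a histone demethylase, was 387 ± 9.08 and 430 ± 16.1 CPM (0.15), and H3f3b, a histone H3.3 gene, was 346 ± 37.2 and 390 ± 8.45 CPM (0.17). Ankhd1 was 279 ± 1.76 and 312 ± 8.11 CPM (0.16), though it shares exon sequence with Eif4ebp3. The p of Unc93b1 stayed under 0.05 in all 19 alternatives. That of Kdm7a was lost without PBS 5 (0.14), TCA 3 (0.13) or TCA 4 (0.14), that of Nfkbia without PBS 5 (-0.15), TCA 4 (-0.14) or TCA 5 (-0.16), that of H3f3b without PBS 3 (0.08) or TCA 5 (0.15) and that of Ankhd1 without TCA 4 (0.14).

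TCA and GCA are both conjugates of cholic acid, with taurine and with glycine, and were given at the same dose and time. Between them, 0 genes (0%) had an adjusted p under 0.05 in edgeR's quasi-likelihood test, with 412 genes at an unadjusted p under 0.05, 0 with an adjusted p under 0.05 in DESeq2 and 2 in the exact test. The interval of their difference lay inside 2-fold for 13457 genes (80.3%). The comparisons of TCA and of GCA with PBS share the PBS samples, so their values are only set side by side. Saa3 was -0.77 with TCA and -0.46 with GCA, Slc7a11 -0.47 and -0.41, Osbpl3 -0.55 and -0.19, Tgm2 -0.50 and -0.18, and Lnx1 1.61 and 1.64. Fosb (1.78 and -0.19) and Egr1 (0.79 and -0.45) had opposite signs. The sign of each of these differences is a description, since no gene differed between TCA and GCA after adjustment.

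For Tβ-MCA the dose in the labels is 10 μM, against 200 μM for TCA, so the samples as labelled cannot set the compounds against each other at 1 dose. Between these samples 588 genes (3.51%) had an adjusted p under 0.05. For the genes above, the log2 fold changes against PBS with TCA and Tβ-MCA were -0.77 and -0.63 for Saa3, -0.55 and 0.02 for Osbpl3, -0.50 and 0.02 for Tgm2, and -0.52 and 2.97 for Map2k6.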

How the data were processed

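Bone marrow neutrophils of 12 samples were measured by stranded mRNA sequencing. The submitters' processing notes name Trimmomatic 0.36, STAR 2.5.3a and featureCounts of Subread 1.5.1 with the builds GRCm38 and mm10, and the authors deposited raw counts per gene, in which no gene was normalized, and RPKM values, which were recomputed from the counts with a relative difference of at most 1.3e-06. A strand setting for the counting is not given in the sources used here, so antisense and overlapping genes may share reads. Between 68.8% and 72.1% of the counts from 1 to 50 in the 6 samples compared were even, and whether the mates of a pair were counted singly is not given in the sources used here. PCR reads are not independent molecules, so limits from few counts cover counting error only.

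Counts were tested with edgeR 4.0.16 in R 4.3.3 by the robust quasi-likelihood test, after TMM normalization and filterByExpr by group, with all 12 samples sharing the estimate of the spread. CPM are counts divided by the summed counts of the tested genes in the sample and its TMM factor, then scaled to the usual CPM unit. A gene was called at the study's thresholds, p under 0.05 and 2-fold, with p left unadjusted here. Adjusted p are Benjamini-Hochberg over all genes tested. The 95% interval of a log2 fold change used the fitted weights and the posterior dispersion. The methods were run on counts simulated from the fitted means and dispersions, with independent samples. Such counts lack the likeness of the number 3 samples, so that run does not show how well the intervals hold in these data. DESeq2 1.42.0, edgeR's exact test, limma 3.58.1 on log2(RPKM + 1) above 0.5 RPKM on average, limma-voom, other normalizations and filters, a replicate block, and leaving out samples were alternatives. Leaving out the number 3 samples was chosen after seeing the data. Python 3.11.15 and matplotlib 3.10.9 made the plots. Gene positions are those of the table on GRCm38, and gene types come from GENCODE vM21 by name and position.

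The members, the gene lists and the tests were chosen with earlier results of these data known. The genes named are the 12 higher and 12 lower genes at the thresholds, without overlap, that had the smallest p, called list members, genes with an adjusted p under 0.05 with or without the block, genes the study names for mouse neutrophils (Arg1, Nos2, Cxcl10, Gpbar1, Mapk14, Mapk3 and Akt1 among them), the 5 most abundant at p under 0.05 without overlap, the extremes and most abundant member of a list, and all tested bile acid receptors and transporters. The genes with the lowest p and list members at p under 0.05 were added after their values were seen. Some genes that these rules pick are not reported here.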

Additional observations from a re-analysis of the deposited data

How the results depend on the processing

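The count of genes at p under 0.05 and 2-fold (78) was within 1.5 times that value with DESeq2 (63), the exact test (103), limma-voom (96), limma on log2(RPKM + 0.1) (54), DESeq2's size factors (78), total library size (74) and only the groups compared (54). It moved to 7 with limma on log2(RPKM + 1), to 5 with the same and no filter, to 287 with no filter on low counts, to 8 with at least 10 counts in every sample, and to 129 without the number 3 samples. With 1 sample left out it lay between 92 and 127, and only the count without TCA 3, 127, was beyond 1.5 times. The count with an adjusted p under 0.05 (0) was 1 with DESeq2 and with the exact test, 4 with limma on log2(RPKM + 1) and no filter, 37 with no filter, and 0 in the other fits without the block. The 37 held Saa3, Osbpl3, Slc7a11, Tgm2, Myo10, Arrdc3, Egr1, Fosb, Cfb and Ighg1, beside ribosomal RNA related genes such as Rn18s-rs5. The count with an interval inside 2-fold (13400) moved only with limma on log2(RPKM + 1) and no filter, to 29117. Between TCA and GCA, the adjusted count (0) was 2 with the exact test, 5 with limma on log2(RPKM + 1) and no filter, 42 with no filter and 4 without the number 3 samples. The cause of these moves was not tested, except that a pseudocount of 1 shrinks low values and no filter adds 12976 genes. Of 124 genes chosen by the rules for naming, 26 had the other sign in at least 1 alternative, among them Nos2 (-0.26 to 0.12), Mapk3 (-0.08 to 0.05), Chrm3 (-0.06 to 0.08), Dusp1 (-0.03 to 0.16), Itgam (-0.09 to 0.04) and Mki67 (-0.06 to 0.10). None of the 26 had a p under 0.05 in the main test or where its sign differed.

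The replicate numbers are shared by TCA and PBS for the numbers 3 and 5 only. Samples with the same number had deviations that correlated by 0.060 to 0.326 over 15 pairs of all groups, 12 of them over 0.1, and the sources do not say that a number marks a mouse or a batch, so the samples share only a number. With the number as a block, 117 genes were at p under 0.05 and 2-fold, 43 of them among the 78, and 3 had an adjusted p under 0.05: Arrdc3, Slc7a11 and Osbpl3, each at 0.0119 in edgeR's test. Between TCA and GCA the block gave 0. Among the genes chosen by the rules for naming, 5 gained a p under 0.05 with the block in edgeR's test, among them Ptgs2 (1.79 in place of 0.89 on the log2 scale) and Mapk14 (-0.16), and 4 lost it, among them Egr1 (0.68).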
